A study of Homo sapiens with 4 samples.

Results

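hsa-miR-3934-5p, hsa-miR-3934-3p and hsa-miR-578 (miR-3934-5p, miR-3934-3p and miR-578 from here on) were the 3 entries described, of 2039 named miRNA entries in the deposited table. They were taken by name, and the names had been chosen because earlier results from these libraries showed miR-3934-5p and miR-578 higher in YAP5SA cells in both replicates; miR-3934-3p is the other arm of the miR-3934 hairpin. The difference between YAP5SA and vector in these entries is therefore a description and carries no test. Only miR-3934-5p and miR-578 were higher in YAP5SA cells, and miR-3934-3p was lower.

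The libraries held small RNA from HFE-145, a human gastric epithelial cell line, and 2 carried the vector while 2 overexpressed YAP5SA. YAP is the transcriptional co-activator restrained by the Hippo kinases, and YAP5SA is a mutant in which the serines that those kinases phosphorylate are replaced by alanine, so that it stays active. The study compared miRNA profiles with and without this active YAP. The sources used here do not say whether the lines were pools or clones, whether the 2 libraries of a group came from separate cultures, or what the vector carried besides its backbone. The SDs below thus measure the spread between these libraries, which may be technical. The SEs also draw on that spread in the other tested miRNAs, and the binomial intervals cover counting error only. YAP1 mRNA was not analysed here.

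A miRNA hairpin is cut by Drosha in the nucleus and by Dicer in the cytoplasm into a duplex of a 5p and a 3p strand, named for the arm of the hairpin they come from. An Argonaute protein usually keeps the strand known as the guide and discards the other, so the arms of 1 hairpin share their transcription and can still differ widely in level. The guide finds its targets mainly through the seed, bases 2 to 8 from its 5′ end. miR-3934 and miR-578 are little studied, and no target or function is given to them here.

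The mature sequences are printed 5′ to 3′ with the seed in capitals, because the seeds decide which other miRNAs could share targets with these. All 3 matched the RefSeq entries of the same name.
miR-3934-5p: uCAGGUGUggaaacugaggcag
miR-3934-3p: uGCUCAGGuugcacagcuggga
miR-578: cUUCUUGUgcucuaggauugu
The 3 seeds differ, and none of the other entries of the table shared bases 2 to 8 with any of them. In bases 2 to 7, miR-125a-3p and miR-764 matched miR-3934-5p, and no entry matched miR-3934-3p or miR-578; this shorter match was looked up after the full seed gave none. Both arms of miR-3934 begin with U, as did 35.2% of the table's entries, and miR-578 begins with C, as did 20.7%. The GC content was 54.5% in miR-3934-5p, 59.1% in miR-3934-3p and 42.9% in miR-578, against a median of 50% over the table.

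MIR3934 lies on the plus strand of GRCh38 chromosome 6 from 33698128 to 33698234 in GENCODE 29, with the 5p arm at 33698152 to 33698173 and the 3p arm at 33698191 to 33698212. It runs opposite to UQCC2, which encodes an assembly factor of mitochondrial respiratory complex III. It falls in an intron of 3 UQCC2 transcripts and opposite an exon of 1 retained-intron transcript. The nearest gene on its own strand, ITPR3, a calcium release channel of the endoplasmic reticulum, ends 1554 bases before it. MIR578 lies on the plus strand of chromosome 4 from 165386242 to 165386337, in an intron of 2 transcripts of CPE on the same strand. CPE encodes carboxypeptidase E, a prohormone-processing enzyme of endocrine cells and neurons. No other annotated miRNA gene lay within 100 kb of either, so neither belongs to a cluster at that distance. The host mRNAs were not measured in these libraries.

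The hairpin of miR-578 is shown with its mature part in capitals, since it places the single counted strand on the 3′ side of the stem.
MIR578: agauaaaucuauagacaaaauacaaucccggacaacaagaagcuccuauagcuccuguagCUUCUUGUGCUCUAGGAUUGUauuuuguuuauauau
The mature miRNA takes positions 61 to 81 of the 96 bases, and 18 of its 21 bases were paired in the minimum free energy fold of RNAfold. That fold had −0.43 kcal/mol per base, against a median of −0.45 over 1562 human hairpins from RefSeq. The table has 1 entry for this hairpin, so no arm ratio could be formed. For miR-3934, RNAduplex paired the 5p and 3p strands with 16 base pairs at −21.8 kcal/mol, against a median of −23.7 kcal/mol over the 178 hairpins whose arms both had at least 20 counts over the 4 libraries. Of those hairpins and duplexes, 56.5% and 64.6% were as stable or more so, which puts both structures near the middle.

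Total counts ran from 136903 to 217235 per library, so that 1 read was worth 4.60 to 7.30 CPM of the library total. In a chi-square test of their counts, replicates differed by more than sampling noise allows (8.23 per degree of freedom in the vector pair and 7.29 in the YAP5SA pair). miRNAs with a mean under 20 counts took 3.41% and 3.15% of the counts of the vector libraries, against 10.5% and 5.56% of those of YAP5SA replicates 1 and 2. The epithelial miRNAs (7 entries, all detected) summed to 19997 to 25410 CPM of the library total in vector and 15045 to 15529 in YAP5SA libraries. The list of miRNAs known from pluripotent and germ cells (8 entries, all detected) took more, 29.9% to 30.5% of the counts in vector and 30.6% to 37.1% in YAP5SA libraries. Nearly all of it was miR-372, at 28.5% to 29.3% and 28.97% to 35.3%. After TMM scaling the list summed to 342856 and 391640 CPM in vector replicates 1 and 2. It summed to 238016 and 372357 CPM in YAP5SA replicates 1 and 2, so the groups overlapped on that scale. Over 602 tested miRNAs, edgeR's quasi-likelihood test called 71 higher in YAP5SA cells, which is 11.8%, and 21 lower, which is 3.49%, at a Benjamini-Hochberg adjusted p under 0.05.

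miR-3934-5p was rarely counted in vector cells and was among the common miRNAs in YAP5SA cells. It had 10 counts in vector replicate 1 and 7 in replicate 2, against 205 and 201 in YAP5SA replicates 1 and 2. After TMM scaling these were 52.8 and 46.0 CPM (counts per 1000000 counts of the tested miRNAs) against 1164 and 1052 CPM. The groups stood far apart and the replicates of each lay close together. Its mean went from 49.4 ± 4.82 to 1108 ± 79.6 CPM (SD, n = 2), a 22.4-fold difference, with a log2 fold change of 4.46 ± 0.39 (SE). By count it was at place 421 and 489 among all entries in the vector libraries and at place 50 and 61 in the YAP5SA libraries.

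miR-578 showed a difference of the same size from a noisier start. Vector replicates 1 and 2 gave 6 and 12 reads of it, and YAP5SA replicates 1 and 2 gave 261 and 192. The corresponding levels were 31.7 and 78.9 CPM in the former, against 1483 and 1005 CPM in the latter. Both YAP5SA libraries lay above both vector libraries by a wide margin. The mean went from 55.3 ± 33.4 to 1244 ± 338 CPM (SD, n = 2), a 22.5-fold difference, with a log2 fold change of 4.51 ± 0.52 (SE). Its place by count moved from 620 and 345 to 47 and 66. Without vector replicate 1 the log2 fold change was 3.62 and without vector replicate 2 it was 4.87, so the size of its difference rests on which vector library is used. Those fits also filtered and scaled the table anew.

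miR-3934-3p went the other way. Vector replicates 1 and 2 gave 404 and 222 reads of it, and YAP5SA replicates 1 and 2 gave 114 and 78, or 2134 and 1459 CPM against 648 and 408 CPM. The groups did not overlap, and replicate 1 was the higher library in each. The mean went from 1797 ± 477 to 528 ± 169 CPM (SD, n = 2), a level 3.40-fold lower, with a log2 fold change of −1.77 ± 0.37 (SE). Without vector replicate 2 it was −2.42. Its place by count went from 48 and 61 to 73 and 105, so this arm stayed well within the range of detection in all 4 libraries.

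The CPM of the 2 groups did not overlap for any of the 3 members. That alone is common here: 33.9% of the 602 tested miRNAs had both YAP5SA libraries above both vector libraries, and 26.6% had both below. The members were chosen for this contrast, so nothing is read from their count. In the authors' deposited table the fold change was 20.04 for miR-3934-5p, 20.8 for miR-578 and 0.430 for miR-3934-3p, YAP5SA over vector.

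**Figure D1:**
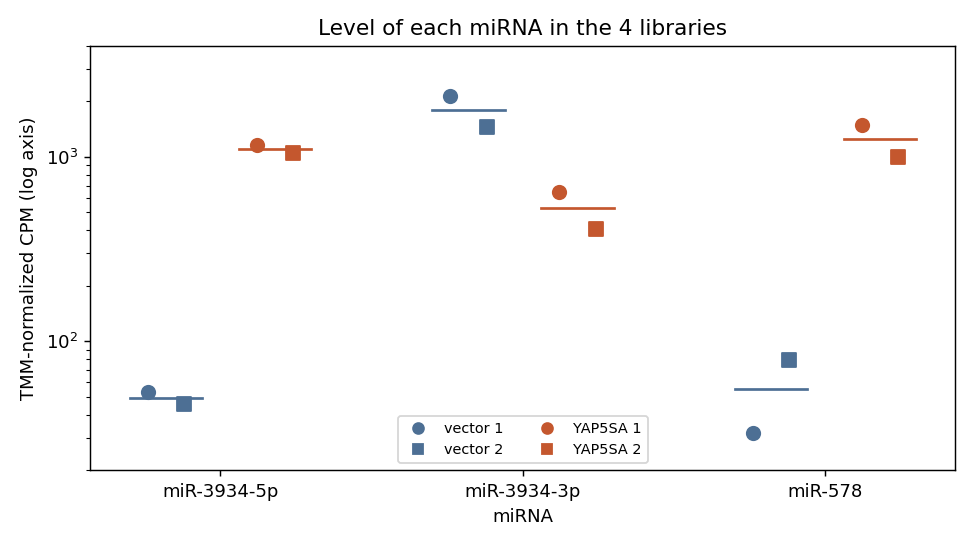
TMM-normalized CPM (log axis) of miR-3934-5p, miR-3934-3p and miR-578 in each library, circles for replicate 1 and squares for replicate 2, with a line at each group's mean. miR-3934-5p and miR-578 lie at 31.7 to 78.9 CPM in vector and 1005 to 1483 CPM in YAP5SA libraries, while miR-3934-3p is lower in YAP5SA libraries.

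Among the members, agreement between replicates was closest for miR-3934-5p. Both miR-3934-5p and miR-578 were chosen as higher in both YAP5SA replicates, so their agreement in that pair is not independent of the choice. For miR-3934-5p the ratio of replicate 1 to replicate 2 in CPM was 1.15 in the vector pair, with an exact binomial 95% interval of 0.395 to 3.55. In the YAP5SA pair it was 1.11 (0.907 to 1.35). Both intervals included 1, so no difference beyond counting error was seen between the replicates of this miRNA. The vector interval is wide at 10 and 7 reads, so it says little about agreement. Of the 602 tested miRNAs, 77.1% had a larger replicate gap in the vector pair and 81.9% a larger one in the YAP5SA pair, on log2 CPM. Such gaps depend on depth, and these percentages, like those of the other members below, were not matched for read count. By count miR-3934-5p was at place 50 and 61 in the YAP5SA libraries, so the 81.9% partly reads its depth.

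For miR-578 the same ratio was 0.402 (0.124 to 1.16) in the vector pair and 1.48 (1.22 to 1.79) in the YAP5SA pair. The vector interval included 1 but is wide at 6 and 12 reads, so it says little about agreement. The YAP5SA replicates differed by more than counting error. Of the tested miRNAs, 11.8% had a larger replicate gap than miR-578 in the vector pair and 46.0% in the YAP5SA pair. For miR-3934-3p the ratio was 1.46 (1.24 to 1.73) in the vector and 1.59 (1.18 to 2.14) in the YAP5SA pair, both beyond counting error, and 35.9% and 37.7% of tested miRNAs had larger gaps. The intervals cover counting error only, since reads were counted without molecular identifiers.

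By read count, the arms of miR-3934 exchanged places between the groups. The 5p arm made up 2.42% of the 414 miR-3934 reads in vector replicate 1 (exact binomial 95% interval 1.16 to 4.40) and 3.06% of 229 in vector replicate 2 (1.24 to 6.20). It made up 64.3% of 319 reads in YAP5SA replicate 1 (58.7 to 69.5) and 72.04% of 279 in YAP5SA replicate 2 (66.4 to 77.2). The 3p arm was thus the more counted arm in both vector libraries and the 5p arm in both YAP5SA libraries. The intervals were far apart between groups and overlapped within them. These are shares of reads, and the amounts of the strands in the cells were not measured.

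Expressed as a ratio, the 3p arm had 40.4 and 31.7 reads for each 5p read in the vector libraries. In YAP5SA replicates 1 and 2 the 5p arm had 1.80 and 2.58 reads for each 3p read. The log2 ratio of 5p to 3p was −5.34 and −4.99 in the vector libraries and 0.85 and 1.37 in the YAP5SA libraries, a mean change of 6.27 with a replicate SD of 0.31. Both arms are counted in the same library, so a scaling factor that multiplies all counts of a library cannot alter this ratio. The ratio does hold the 5p count for which miR-3934 was chosen, so its change is not independent of that choice.

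The sum of the arms depended on the scaling. After TMM, vector replicates 1 and 2 had 2187 and 1505 CPM of it, while YAP5SA replicates 1 and 2 had 1812 and 1460 CPM, so these ranges overlapped. When scaled from rarely counted miRNAs, it was 2844 and 1752 CPM in vector against 1438 and 1216 CPM in YAP5SA libraries, with no overlap. When scaled from abundant miRNAs, it was 1687 and 1225 CPM against 2567 and 1642 CPM, which is higher on average in YAP5SA libraries. These values thus give no direction for the sum. In bulk samples, fewer cells of a type and less RNA per cell cannot be told apart, and the same holds for a change of arms within every cell and a change in which cells carry the hairpin.

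**Figure D2:**
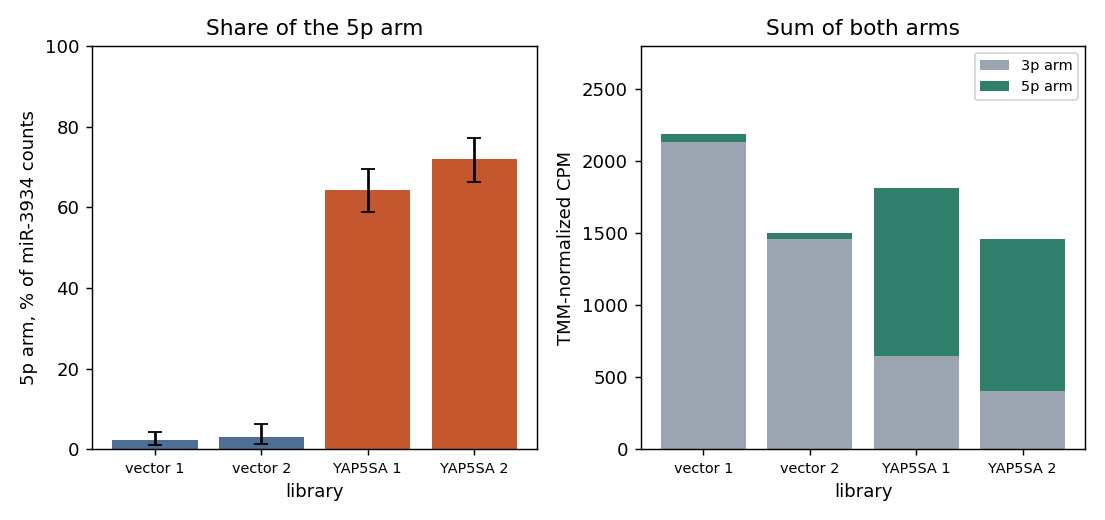
Left, the 5p arm as a percentage of miR-3934 counts in each library, with exact binomial 95% intervals; right, TMM-normalized CPM of the 3p and 5p arms stacked. The 5p share goes from 2.42% and 3.06% to 64.3% and 72.04%, while the stacked heights of the groups overlap on this scale; with scaling from rarely counted miRNAs the sums do not overlap.

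The change in arm ratio was set beside that of every hairpin with both arms in the table. Of 557 such hairpins, 178 had at least 20 counts in each arm over the 4 libraries. With 0.5 counts added to each arm, the median absolute change in the log2 ratio between the groups was 0.72, and 69 hairpins changed by more than 1. miR-3934 had the largest change, 6.18, followed by miR-4742 with 4.83. In 16 of the 178 hairpins, miR-3934 included, the more counted arm differed between the groups in both replicates. Among the 27 hairpins with at least 100 counts in each arm, the change was 6.18 for miR-3934 and 1.12 for the next, miR-148a. Both first places rest in part on the 5p counts for which miR-3934 was chosen, so they are descriptions and carry no test.

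The other hairpins near the top were far less deeply counted. miR-4742 had 5p and 3p counts of 1 and 10 in vector replicate 1, 0 and 15 in vector replicate 2, 14 and 18 in YAP5SA replicate 1, and 21 and 4 in YAP5SA replicate 2. miR-576 changed by 4.24, and its 5p and 3p counts were 8 and 21, 2 and 22, 47 and 26, and 39 and 4 in the same library order. In both, the log2 ratio differed between replicates of a group by 1.83 to 2.61, against 0.38 and 0.52 for miR-3934. miR-766 changed by 3.78 and miR-5585 by 3.70, each with at most 1 read of the 5p arm in either vector library. Of the 84 hairpins with both arms among the 602 tested miRNAs, 25 had arms with fold changes of opposite sign.

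**Figure D3:**
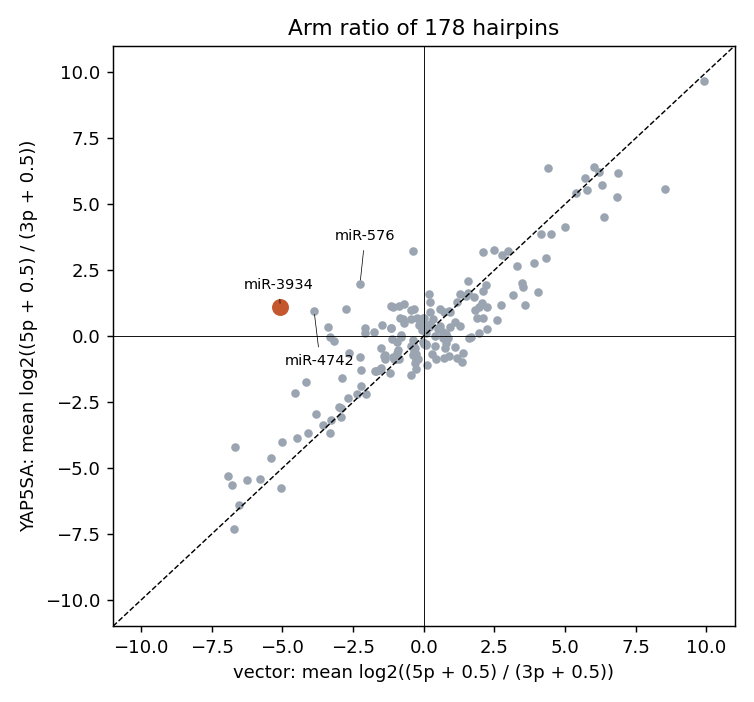
Mean log2((5p + 0.5) / (3p + 0.5)) in YAP5SA against vector libraries for 178 hairpins, each a point, with a dashed line of equality; miR-3934 is the large point and miR-4742 and miR-576 are also named. The median absolute vertical distance from the line is 0.72, and 69 hairpins lie more than 1 from it. miR-3934 lies 6.18 above it.

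The members' levels were set beside those of other miRNAs. Among the 463 tested miRNAs with at least 5 counts in each vector library, the lower YAP5SA library exceeded the higher vector library 19.9-fold for miR-3934-5p and 12.7-fold for miR-578. These were the first and second values, and the next was 5.41 for miR-3692-5p. Without that limit, among all 601 tested miRNAs with vector counts, miR-3934-5p was at rank 2 and miR-578 at rank 10 by this ratio. By log2 fold change, they were at ranks 13 and 12 of 602. Of the other tested miRNAs, 18 had a log2 fold change above 4, and all 18 had 5 counts or fewer in either vector library. None of those 18 reached 1000 CPM in both YAP5SA libraries, as miR-3934-5p and miR-578 did. The 66 other tested miRNAs with a mean of 300 to 1200 CPM, a range that holds all 3 members, had a median log2 fold change of −0.56 and a range of −2.03 to 7.83, against a median of 0.11 over all 602. That range and the limits of 5 counts and 1000 CPM were set after the members' values were seen.

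**Figure D4:**
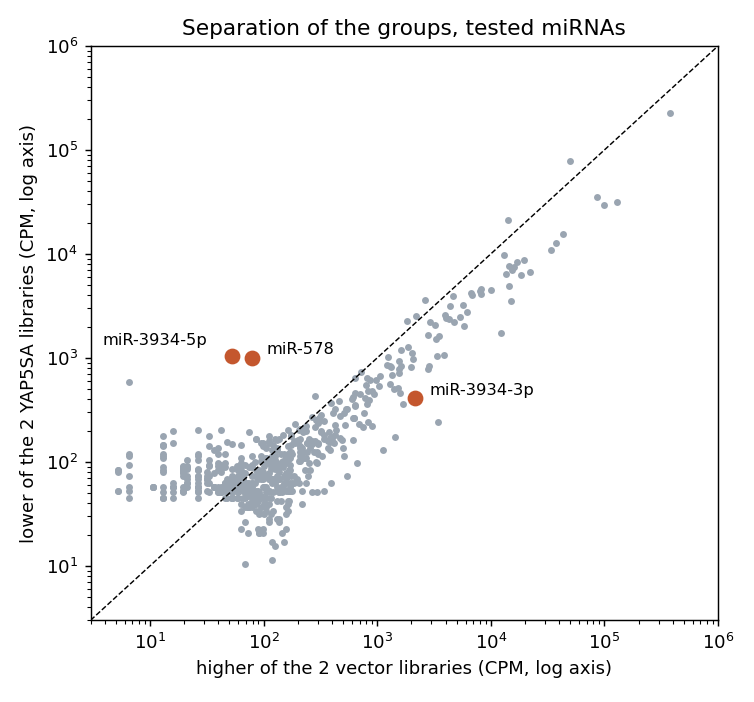
Lower of the 2 YAP5SA libraries against the higher of the 2 vector libraries in CPM (log axes) for 601 tested miRNAs, with a dashed line of equality; 1 miRNA at 0 in both vector libraries is not drawn. miR-3934-5p and miR-578 lie 19.9-fold and 12.7-fold above the line, and miR-3934-3p lies below it.

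The share of reads in rare miRNAs was higher in the YAP5SA libraries, as given above, and miR-3934-5p and miR-578 were rare in the vector libraries. Beside the pluripotent list, 6 lists stood for other cell types. The neural pair miR-124-3p and miR-9-5p summed to 5 and 4 counts in vector libraries and to 15 and 20 in YAP5SA libraries, which is 26.3 to 26.4 and 85.2 to 105 TMM-normalized CPM. Most of these counts were miR-9-5p, with 5 and 2 in vector and 13 and 17 in YAP5SA libraries, so the sum says little of miR-124-3p. The neural list was the one list of the 6 whose groups did not overlap on both the TMM scale and the library totals with YAP5SA higher. After TMM, 33.9% of the 602 tested miRNAs likewise had both YAP5SA libraries above both vector libraries. miR-375, which marks neuroendocrine cells, was at 184 to 232 CPM after TMM and 143 to 203 CPM of the library total in vector, against 216 to 236 and 234 to 278 in YAP5SA libraries, so its groups overlapped after TMM. The endothelial miR-126-3p likewise overlapped after TMM, with 26.4 to 72.3 CPM in vector and 62.8 to 102 in YAP5SA libraries. As CPM of the library total it was at 23.0 to 56.3 in vector and 62.5 to 131 in YAP5SA libraries, without overlap. The liver miR-122-5p had 5 or 6 counts in every library. The 5 blood miRNAs summed to 380.4 to 447 CPM after TMM in vector and 267 to 534 in YAP5SA libraries, and the 4 muscle entries to 52.6 to 68.7 and 57.6 to 216, so both overlapped. None of these entries was at 0 in all 4 libraries. Their part in the higher levels of miR-3934-5p and miR-578 was not tested.

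Scaling moved the sizes and left the directions. With library totals alone the log2 fold change was 4.98 for miR-3934-5p, 5.07 for miR-578 and −1.22 for miR-3934-3p. Scaling from miRNAs whose mean reached 1000 CPM gave 5.15, 5.20 and −1.05 in that order, and scaling from tested miRNAs under 100 CPM gave 3.86, 3.92 and −2.39. The same scalings moved the median of all 602 miRNAs from 0.11 to 0.61, 0.76 and −0.48. Relative to that median, miR-3934-5p was higher by 4.34 to 4.38, miR-578 higher by 4.39 to 4.47, and miR-3934-3p stood between −1.91 and −1.81 in the 6 scalings of the counts, as scalings shift all fold changes nearly alike.

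The separation of the groups also held under each scaling. The lower YAP5SA library exceeded the higher vector library 12.7-fold to 29.02-fold for miR-3934-5p and 9.11-fold to 17.6-fold for miR-578 over the 6 scalings of the counts. For miR-3934-3p the lower vector library exceeded the higher YAP5SA library 1.29-fold to 3.31-fold, the narrowest margin of the 3. On the authors' normalized counts these ratios were 15.4, 11.3 and 1.41.

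The authors' log2 normalized values gave the same directions. On that scale miR-3934-5p stood at 3.78 and 3.52 in the vector libraries, against 8.20 and 7.73 under YAP5SA, replicate 1 first. miR-578 stood at 3.17 and 4.07 against 8.44 and 7.56. miR-3934-3p stood at 8.32 and 7.73 against 7.23 and 6.29. The log2 difference was 4.31 for miR-3934-5p, 4.38 for miR-578 and −1.26 for miR-3934-3p, with a median of −0.12 over the 602 miRNAs. The change in the arm ratio of miR-3934 on these values was 5.57, again the largest of the 178 hairpins. These values are not the counts times 1 factor per library. In vector replicate 1, 10 reads of the 5p arm became 13.75 normalized counts and 404 of the 3p arm became 319.2. The arm ratio could thus differ from that of the counts.

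**Figure D5:**
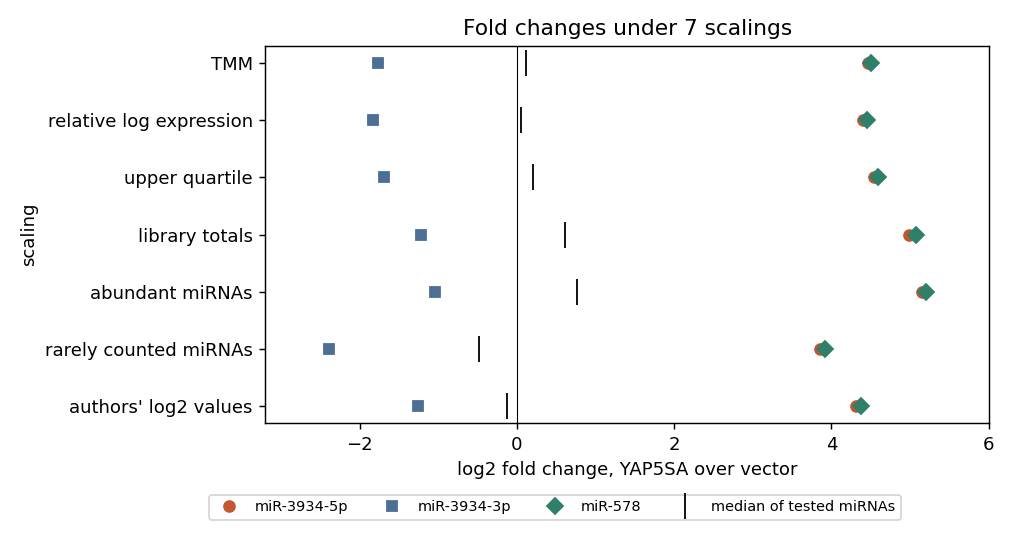
Log2 fold change of YAP5SA over vector (horizontal) for the 3 members under 7 scalings (vertical), with a bar at the median of the 602 tested miRNAs. miR-3934-5p and miR-578 stay between 3.86 and 5.20 and miR-3934-3p between −2.39 and −1.05, moving with the median in the scalings of the counts.

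miR-3934-5p and miR-578 also resembled each other across libraries. Likeness was measured as the root mean square difference of log2 CPM, each miRNA centred on its own mean over the 4 libraries. Among 601 miRNAs, miR-578 was the second most like miR-3934-5p, with a difference of 0.46. With 4 libraries and a large contrast between the groups, this measure mostly reads that contrast. Since miR-3934-5p and miR-578 were both chosen for it, their likeness was largely set by the choice. miR-4802-5p was first for miR-3934-5p (0.45), with vector counts of 3 and 2 against 66 and 38 with YAP5SA, and miR-4660 was the third (0.55), with 3 and 1 against 42 and 29. For miR-578 the nearest was miR-600 (0.41), with 0 and 2 against 86 and 28, and after miR-3934-5p came miR-549a (0.59), with 0 and 2 against 25 and 27. For miR-3934-3p the nearest were let-7b-3p (0.15), with 26 and 18 against 7 and 5, miR-10a-3p (0.19), with 96 and 47 against 23 and 22, and miR-128 (0.25), with 729 and 390 against 190 and 204. The neighbours of miR-3934-5p and miR-578, each other aside, were counted far less often than the members themselves.

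Entries nearest to the members in seed or sequence were looked at for similar differences. miR-125a-3p, from a hairpin known for its 5p arm of the miR-125 family, has the same bases 2 to 7 as miR-3934-5p, in capitals.
miR-125a-3p: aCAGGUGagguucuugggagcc
It had 31 and 37 vector counts against 27 and 46 with YAP5SA, and its log2 fold change of −0.04 ± 0.46 (SE) missed the threshold of edgeR's test (adjusted p = 0.96). miR-764 had 4 and 3 against 11 and 4 counts and did not pass the filter. By sequence, the entry nearest to miR-578 was miR-129-5p at an edit distance of 6, with 1 and 3 counts against 4 and 1, also under the filter. The nearest entries to miR-3934-5p were 14 miRNAs at an edit distance of 8, and those to miR-3934-3p were 8 at the same distance. Reads of full length from these entries would thus differ from the members at 6 or more positions.

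Stretches of the members were also looked up in GENCODE 29 transcripts, since a short read can match more than its miRNA. The full sequence of miR-578 occurred only in its own hairpin transcript, and those of both miR-3934 arms in their own hairpin and, on the opposite strand, in the retained-intron transcript of UQCC2. Among windows of 12 bases, bases 9 to 20 of miR-3934-5p, shown in capitals, occurred in transcripts of 487 genes of 57133.
miR-3934-5p: ucagguguGGAAACUGAGGCag
Of the table's 2039 entries, 1.28% had a window found in as many genes, and the median entry's most frequent window was found in 32. The most frequent window of miR-3934-3p was in 37 genes and that of miR-578 in 13. Whether partial reads from other transcripts entered the count of miR-3934-5p was not tested, as the table holds no reads or read lengths.

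The promoter of CPE, the gene that hosts miR-578, was searched for GGAATG, the core letters bound by the TEAD factors through which YAP reaches DNA, on both strands. The 300 bases around its RefSeq start held 0 matches, and 14.03% of 35116 RefSeq promoter windows of that length held at least 1. No match says only that these letters are not in this window.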

How the data were processed

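Total RNA of 4 HFE-145 samples, 2 with vector and 2 with YAP5SA by their titles, was made into small RNA libraries, per the labels' protocols. The deposited table gives raw read counts per mature miRNA, not normalized, per the file headers. The log2 values in it are log2 of a normalized read count made by the authors, whose method was not found. The authors' fold change is a ratio of YAP5SA over vector, and the deposited p-value column was not used. The submitters' processing notes name FastQC and hg19; for the aligner, the counting tool, its handling of multiple matches and the miRNA annotation, the names were not given in the sources used here. 3 lines without a name were left out.

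Counts were tested with edgeR 4.0.16 (R 4.3.3; quasi-likelihood test, TMM scaling, default filter, group as the term), which kept 602 of 2039 miRNAs with 96.9% of counts. Adjustment was by Benjamini-Hochberg with a threshold of 0.05. The SE is the log2 fold change divided by the square root of F. CPM values are counts per 1000000 counts of the 602 miRNAs after TMM; log2 CPM used a prior count of 2. Depth of 136903 to 217235 counts limits precision at levels of a few reads. The steps were tested on simulated data. The members, the lists and the tests were chosen with earlier results of these data known. The text names the members, entries sharing a seed, miRNA genes within 100 kb, the 3 most like miRNAs of each member, the 5 hairpins with the largest change in arm ratio, and the nearest entry by edit distance where there was a single nearest. Others named, miR-125a-3p, miR-764, miR-3692-5p and miR-148a, were chosen after their values were seen. Alternatives were other scalings and filters, a replicate block, each library left out, DESeq2 1.42.0 and limma 3.58.1 on the authors' log2 values. Structures used ViennaRNA 2.7.2. Sequences and their positions are from RefSeq on GRCh38.p14, and gene positions from GENCODE 29; none is converted from hg19.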

Additional observations from a re-analysis of the deposited data

How the results depend on the processing

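The direction of all 3 members and of the arm ratio was kept under every alternative run. The first place of miR-3934 among hairpins was kept in the 3 alternatives run for it (at least 10 or 100 counts per arm, and the authors' log2 values), and was not computed with a library left out. The sizes of the log2 fold changes moved by more than the replicate SD as follows. For miR-3934-5p and miR-3934-3p they were 4.98 and −1.22 with library totals, 5.15 and −1.05 when scaled from abundant miRNAs, 3.86 and −2.39 when scaled from rarely counted miRNAs, 4.03 and −2.25 with a filter at a mean of 10 CPM, 4.89 and −1.33 with a filter at 100 CPM, 4.02 and −2.26 with no filter, and 4.31 and −1.26 on the authors' log2 values. For miR-578 the value was 5.20 with scaling from abundant miRNAs. The change in log2 arm ratio was 5.57 on the authors' values. With each library left out it ran from 6.01 to 6.53, and the log2 fold changes ran from 3.97 to 4.29 for miR-3934-5p, −2.42 to −1.82 for miR-3934-3p and 3.62 to 4.87 for miR-578.

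The counts of miRNAs called over the table moved far more. In place of 71 higher and 21 lower, edgeR called 147 and 12 with library totals, 152 and 5 when scaled from abundant miRNAs, 58 and 90 when scaled from rarely counted miRNAs, 19 and 1 with the filter at 10 CPM (1791 tested), 25 and 1 at 100 CPM (315 tested), and 34 and 14 with no filter (2034 tested). DESeq2 called 36 and 18. limma on the authors' values called 0 and 0, with 129 at an unadjusted p under 0.05. With a library left out, edgeR called 1 to 124 higher and 0 to 159 lower; without vector replicate 1 it called 1 and 0 with 112 at an unadjusted p under 0.05, and without vector replicate 2 it called 13 and 0 with 119. Without YAP5SA replicate 1 it called 61 and 57, and without YAP5SA replicate 2 it called 124 and 159. The cause was not tested, and the fits with a library left out or another filter also tested other numbers of miRNAs. With the replicate block edgeR called 102 and 34, and the members' log2 fold changes were 4.47, −1.78 and 4.52. Deviations of same-numbered libraries had a correlation of 0.016 over 602 miRNAs, so the numbers were not taken to pair the samples.

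Depth limits the vector values of miR-3934-5p and miR-578, which rest on 6 to 12 reads a library, and so the size of their difference more than its direction.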
